A study of Mus musculus with 6 samples.

Results

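The genes described here are 10 mouse genes of migrating neuroblasts and of the neurons of the olfactory bulb, listed by symbol: Dcx, Sox11, Igfbpl1, Cd24a, Dlx1, Dlx2, Dlx5, Dlx6, Eomes and Tbx21. All 10 were found among the 56748 genes of the deposited table, and all 10 passed the filter of a mean normalized count of at least 10, as 16162 genes did. Polyadenylated RNA was sequenced from homogenized brain of mice implanted with MCF10DCIS cells, human cells that form lesions like ductal carcinoma in situ, an early breast cancer. The cells carried the vesicle protein CD63 fused to the luciferase NLuc. There were 3 libraries from day 28 and 3 libraries from day 3 after implantation. Every mouse carried the implanted cells, no unimplanted control was analysed here, and strain, sex and age are not given in the labels. Whether each library is a different animal is not stated, and the p-values below cover library-to-library spread, whatever its source.

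The subventricular zone of the adult mouse forebrain makes neuroblasts that travel along the rostral migratory stream to the olfactory bulb and become inhibitory granule and periglomerular cells there. Their migration needs doublecortin, the product of Dcx, and their inhibitory fate depends on the Dlx homeobox factors. The output neurons of the bulb are the mitral and tufted cells. These are excitatory and express the T-box factors Eomes, also called Tbr2, and Tbx21, also called T-bet. Several of the 10 genes also have other sources: Dlx genes are expressed in inhibitory neurons of the forebrain, Eomes in cerebellar unipolar brush cells and in dentate progenitors, Cd24a in ependyma and blood cells, and Tbx21 in T and NK cells.

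All of the 10 genes but Cd24a had higher mean normalized counts at day 28 than at day 3. For Dcx, the 4 Dlx genes and Tbx21 the ratio of the means ran from 2.00 for Dlx6 to 8.71 for Tbx21. None of the 10 genes passed the test across all genes (limma on log2(normalized count + 1), two-sided, Benjamini-Hochberg adjusted p under 0.05). At an unadjusted p under 0.05, 6 of the 10 were past the threshold, all higher at day 28, and voom gave the same counts of 0 and 6. The unadjusted count depended on the fit. It was 5 with no intensity trend, 7 with the replicate number as a block and 4 with the mean level of cerebellar genes as a covariate. On leaving out 1 library it ran from 5 to 8. In the whole table, 0.0681% of tested genes were called higher and 0.124% lower after adjustment, and 6.98% were higher and 6.39% lower at an unadjusted p under 0.05. The groups did not overlap for 5 of the 10, Dcx, Dlx1, Dlx5, Dlx6 and Tbx21, each with every day 28 library above every day 3 library, which 9.71% of all tested genes also showed, while 9.21% showed the opposite. The median log2 difference, day 28 minus day 3, was 1.30 for the 10 genes and -0.01 for all tested genes. Without day 3 replicate 3, 4 of the 10 passed, Dlx1, Dlx5, Dlx6 and Tbx21, where 2.01% of all tested genes were called higher. Tbx21, which also has the largest ratio of the means, is counted in each of these sets. With a day 3 mean of 3.55, it passed the filter only through day 28. In bulk tissue, fewer cells of a type and less RNA per cell cannot be told apart.

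The 6 libraries differed widely in transcripts of single brain regions. Depth was 11958137 to 16059196 reads, and Snap25, a neuronal release gene, stood between 34277 and 36555 normalized counts in all 6. None of 11 genes of the main brain cell types passed the test (median log2 difference 0.04), among them Mbp and P2ry12 with differences of -0.51 and 0.60 (limma adjusted p = 0.159 and 0.165). Gabra6, a cerebellar granule cell receptor gene, stood at 0, 0 and 200.0 normalized counts in day 28 replicates 1 to 3 and at 2102, 2177 and 0 in day 3 replicates 1 to 3. Cdhr1, a cadherin gene of mitral and tufted cells, stood at 1110.1, 542 and 241 at day 28 and at 59.5, 20.6 and 124 at day 3. Cdhr1 was thus highest in day 28 replicate 1, and Gabra6 in day 3 replicates 1 and 2. All 10 cerebellar genes had negative log2 differences (median -3.45), none past the threshold, with Barhl1, Calb1 and En2 at -4.36, -0.76 and -2.79 (limma adjusted p = 0.0991, 0.285 and 0.295). Barhl1, with a day 28 mean of 3.49, passed the filter only through day 3. Omp, a gene of olfactory sensory neurons in the nose, had 152, 14.3 and 0 at day 28 and 2.75, 1.03 and 6.09 at day 3. Of the 3 tested of 4 olfactory sensory neuron genes none passed, with Gng13, Stoml3 and Omp at log2 differences of -0.71, 1.54 and 1.81 (limma adjusted p = 0.343, 0.483 and 0.677). Stoml3 and Omp, with day 3 means of 9.12 and 3.29, passed the filter only through day 28.

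With the day 3 group reduced to replicate 3, the 1 library not rich in cerebellar transcripts, the log2 difference was 1.28 for Dcx, 0.83 for Dlx1, 0.75 for Dlx2, 0.50 for Dlx5, 0.72 for Dlx6, 1.46 for Tbx21, 1.75 for Eomes, -0.14 for Igfbpl1, -0.19 for Sox11 and -0.36 for Cd24a, and none of the 10 passed. The spread of that lone library is then assumed to be that of the day 28 libraries. With the mean level of the cerebellar genes as a covariate in all 6 libraries, the log2 difference was 1.35 for Dcx, 0.83 for Dlx1, 0.68 for Dlx2, 0.70 for Dlx5, 0.83 for Dlx6, 1.97 for Tbx21, 0.83 for Eomes, 0.13 for Igfbpl1, -0.10 for Sox11 and -0.57 for Cd24a, and none of the 10 passed. The part of these regional transcripts in the values of the 10 genes was otherwise not tested.

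**Figure D1:**
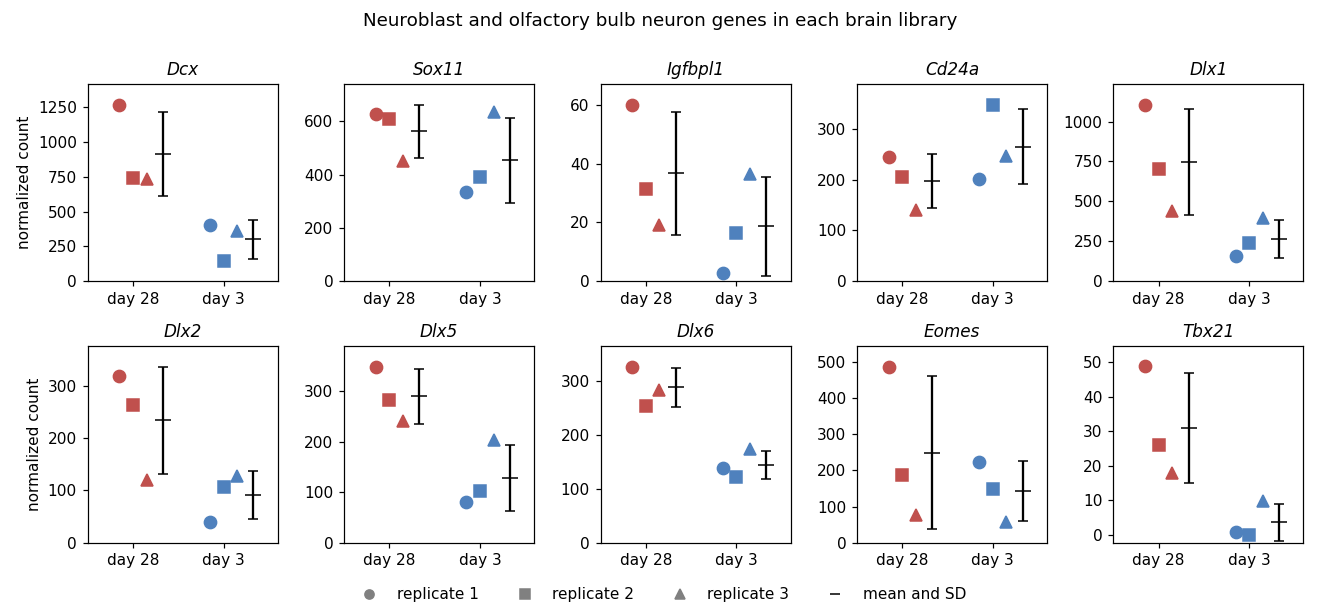
Normalized counts of the 10 genes on a linear axis, with day 28 left of day 3, 1 symbol per replicate, and the mean with SD beside each group of 3. Day 28 replicate 1 is the highest of the 6 libraries for Dcx, Igfbpl1, all 4 Dlx genes, Eomes and Tbx21, and day 3 replicate 2 is the highest for Cd24a.

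Promoter sequences are shown for the 4 genes with the largest log2 differences, Tbx21, Dcx, Dlx1 and Dlx2, since their levels differed most between the days. They are the 250 bases before the annotated start, 5′ to 3′ on the strand of the gene, from RefSeq on build GRCm38.p6, which is older than the GRCm39 build of the counts. Of the 10 genes, 6 had a window in that table. Capitals mark matches on either strand to TATAAA, the TATA box, CAGCTG, an E-box bound by proneural factors, TAATTA, a homeodomain core, AACAAT, a Sox core, GGTGTGA, a T-box half-site, and GGGCGG, a GC box.
Tbx21, chr11:97115332-97115581, minus strand: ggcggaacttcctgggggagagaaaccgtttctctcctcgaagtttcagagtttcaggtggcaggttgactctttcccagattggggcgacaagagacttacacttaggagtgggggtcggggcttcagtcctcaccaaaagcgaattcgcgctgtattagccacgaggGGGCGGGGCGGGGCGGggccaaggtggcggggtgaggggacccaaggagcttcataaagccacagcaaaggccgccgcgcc
Dcx, chrX:143933220-143933469, minus strand: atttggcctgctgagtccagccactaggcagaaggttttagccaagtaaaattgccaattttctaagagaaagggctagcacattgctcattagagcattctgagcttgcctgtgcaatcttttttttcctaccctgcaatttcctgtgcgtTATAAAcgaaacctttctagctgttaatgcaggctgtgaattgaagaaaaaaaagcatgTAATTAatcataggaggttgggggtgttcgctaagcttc
Dlx1, chr2:71529195-71529444, plus strand: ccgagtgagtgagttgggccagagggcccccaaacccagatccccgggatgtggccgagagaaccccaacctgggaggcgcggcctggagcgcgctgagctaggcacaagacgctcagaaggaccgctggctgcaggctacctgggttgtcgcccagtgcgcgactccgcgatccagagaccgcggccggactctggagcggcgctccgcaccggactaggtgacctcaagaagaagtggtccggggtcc
Dlx2, chr2:71546755-71547004, minus strand: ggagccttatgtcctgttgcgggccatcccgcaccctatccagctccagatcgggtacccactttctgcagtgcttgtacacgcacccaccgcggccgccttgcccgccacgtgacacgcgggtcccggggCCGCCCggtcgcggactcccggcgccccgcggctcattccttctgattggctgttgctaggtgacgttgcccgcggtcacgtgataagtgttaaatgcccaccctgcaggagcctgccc
Each full window also holds the first 50 bases of the transcript, which are not printed. The full Dcx window held 1 TATAAA and 1 TAATTA match, that of Tbx21 3 GGGCGG matches and 1 CAGCTG match, and those of Dlx1 and Dlx2 1 GGGCGG match each. The CAGCTG of Tbx21 and the GGGCGG of Dlx1 lie after the start, so the printed Dlx1 stretch has no capitals. Among all 32851 full windows, 13.6% held TATAAA, 5.29% TAATTA, 16.3% CAGCTG, 10.7% AACAAT, 3.98% GGTGTGA and 35.7% GGGCGG. The GC content of the full window was 43.0% for Dcx, 69.3% for Dlx1, 66.3% for Dlx2 and 62.0% for Tbx21, against a median of 52.7% over all windows. These matches are descriptions of letters and not of bound sites.

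Among the neuroblast genes, the groups did not overlap for Dcx and overlapped for Sox11, Igfbpl1 and Cd24a. Dcx had 1266, 743 and 737 normalized counts at day 28 and 401, 141 and 363 at day 3. All day 28 libraries were above all day 3 libraries, with day 28 replicate 1 far above the rest and day 3 replicate 2 the lowest. The means were 915 ± 304 at day 28 and 302 ± 141 at day 3 (SD, n = 3 each), a log2 difference of 1.69 with an SE of 0.38 that did not pass (limma adjusted p = 0.122). Leaving out 1 library at a time moved that difference between 1.21 and 1.96.

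Sox11, a transcription factor of immature neurons, had 628, 609.9 and 449 normalized counts at day 28 and 335, 391 and 634 at day 3. The highest of the 6 libraries was day 3 replicate 3, so the groups overlapped (log2 difference 0.35, SE 0.24, limma adjusted p = 0.562). With only day 3 replicate 3 in the day 3 group, the Sox11 difference was -0.19. Igfbpl1, which encodes a secreted protein related to the binding proteins of insulin-like growth factors and marks newborn neurons, had 59.9, 31.3 and 19.0 normalized counts at day 28 and 2.75, 16.5 and 36.5 at day 3. It was low throughout, with 3 to 60 reads per library, and its day 3 libraries spanned 13.3-fold (log2 difference 1.33, SE 0.84, limma adjusted p = 0.531). Leaving out day 3 replicate 1 gave an Igfbpl1 difference of 0.41, and leaving out day 3 replicate 3 gave 2.07. With only day 3 replicate 3 in the day 3 group, the Igfbpl1 difference was -0.14.

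Of 16 other genes of neuroblasts and immature neurons, none passed the test, 10 had a positive and 6 a negative log2 difference, and the list median was 0.16. Robo2, a guidance receptor, had 2469.8, 2356 and 2312 normalized counts at day 28 and 1552, 1351 and 1961 at day 3, with no overlap (log2 difference 0.57, limma adjusted p = 0.126). Nrep had 958, 1005 and 1096 at day 28 and 2357, 2883 and 1121 at day 3, with the top values in the libraries rich in cerebellar transcripts (log2 difference -0.95, limma adjusted p = 0.215). Stmn2, which encodes a microtubule regulator of growing axons, was lower in every day 28 library than in every day 3 library (log2 difference -0.35, limma adjusted p = 0.216). Sox4, the close relative of Sox11, had 1182, 831 and 635 at day 28 and 288, 424 and 731 at day 3 (log2 difference 0.93, limma adjusted p = 0.266). Most of these genes are also expressed by mature neurons. Tubb3, a neuronal tubulin gene, had a log2 difference of -0.01, and the ratio of Dcx to Tubb3 was 0.294, 0.159 and 0.162 at day 28 and 0.100, 0.0302 and 0.0733 at day 3. That ratio did not overlap between the days (exact permutation test, two-sided p = 0.1, the smallest p that 3 against 3 allows).

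Progenitor genes of the subventricular zone had mostly negative differences. Of 10 genes, 8 were tested and none passed, with 2 positive and 6 negative log2 differences and a median of -0.28. Fabp7, a fatty acid binding protein of radial glia and of the glia that ensheathe olfactory axons, had 952, 478 and 415 normalized counts at day 28 and 343, 324 and 409 at day 3 (log2 difference 0.68, limma adjusted p = 0.334). The day 28 libraries were all above the day 3 libraries for Fabp7, by a small margin in replicate 3. Nes, an intermediate filament gene of progenitors, had a log2 difference of 0.33 (limma adjusted p = 0.586).

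The 4 Dlx genes encode homeobox transcription factors of inhibitory neurons and lie as neighbour pairs, Dlx1 with Dlx2 and Dlx5 with Dlx6. All 4 had positive log2 differences, and Dlx2 alone overlapped between the days. Dlx1 had 1102, 699 and 441 normalized counts at day 28 and 158, 241 and 392 at day 3. The lowest day 28 library stood little above the highest day 3 library. The Dlx1 means were 747 ± 333 and 263 ± 119 (day 28 and day 3, SD, n = 3 each; log2 difference 1.50, SE 0.38, limma adjusted p = 0.149).

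Dlx2 had 317, 263 and 120.4 normalized counts at day 28 and 38.5, 106 and 128 at day 3 (log2 difference 1.41, SE 0.49, limma adjusted p = 0.257). The last of the day 28 libraries lay below day 3 replicate 3. Dlx5 had 348, 282 and 241 at day 28 and 79.7, 102 and 203 at day 3 (log2 difference 1.27, SE 0.32, limma adjusted p = 0.153). Dlx6 had 325, 254 and 283 at day 28 and 137, 121 and 173 at day 3. Its replicates were the closest of the 10 genes, with a span within a group of 1.28-fold at day 28 and 1.42-fold at day 3. Dlx6 also had the smallest adjusted p of the 10 genes (log2 difference 1.00, SE 0.18, limma adjusted p = 0.0786). Without day 3 replicate 3 the adjusted p was 0.0182 for Dlx6, 0.0116 for Dlx5, 0.0342 for Dlx1 and 0.0369 for Tbx21 (limma).

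**Figure D2:**
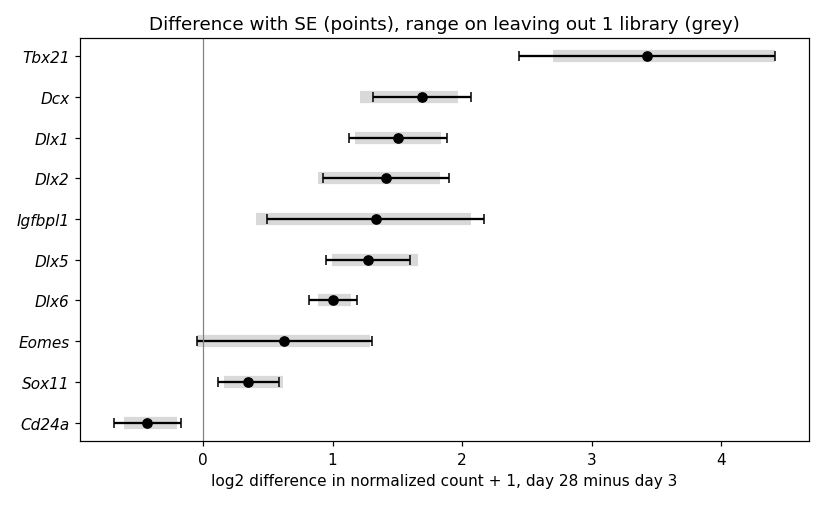
The log2 difference of each gene, day 28 minus day 3, with its SE (points and bars), and the range of that difference when each of the 6 libraries is left out in turn (grey). The range stays above 0 for 8 genes, below 0 for Cd24a, and runs from -0.047 to 1.29 for Eomes.

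Antisense transcripts lie at both Dlx loci, and the sources used here do not say whether counting used the strand, so reads of a gene and its antisense partner may be mixed. Dlx6os1, a long noncoding RNA antisense to Dlx6, had 726, 449 and 360.2 normalized counts at day 28 and 195, 211 and 270.2 at day 3 (log2 difference 1.13, limma adjusted p = 0.117). Dlx1as, antisense to Dlx1, had 379, 277 and 318 at day 28 and 111, 148 and 239.8 at day 3 (log2 difference 1.02, limma adjusted p = 0.16). Neither group pair overlapped. These 2 transcripts were added after the values of the table had been seen.

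Ratios within a library compared the Dlx genes with one another and with genes of inhibitory neurons. In all, 16 ratios were computed over the 10 genes and 15 were tested by exact permutation, and none had a Benjamini-Hochberg p under 0.214. The ratio of Dlx1 to Dlx2 was 3.47, 2.65 and 3.66 at day 28 and 4.10, 2.27 and 3.07 at day 3, with overlapping groups (exact permutation p = 0.8). The ratio of Dlx1 to Sp9, a zinc finger factor of migrating inhibitory neuroblasts and striatal neurons, was 1.51, 1.35 and 1.28 at day 28 and 1.33, 1.42 and 1.32 at day 3 (exact permutation p = 0.8). Across the 6 libraries Dlx1 itself spanned 7.00-fold and Sp9 6.18-fold, while their ratio stayed between 1.28 and 1.51.

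Relative to Gad2, a gene of the enzyme that makes GABA in all inhibitory neurons, Dlx1, Dlx5 and Dlx6 did not overlap between the days, and Dlx2 did. The ratio of Dlx1 to Gad2 was 0.263, 0.165 and 0.118 at day 28 and 0.0535, 0.0782 and 0.105 at day 3, with no overlap and a narrow gap between day 28 replicate 3 and day 3 replicate 3 (exact permutation p = 0.1, the smallest possible). For Dlx6 the ratio to Gad2 was 0.0775, 0.0600 and 0.0756 at day 28 and 0.0467, 0.0394 and 0.0465 at day 3 (exact permutation p = 0.1). For Dlx2 it was 0.0756, 0.0623 and 0.0321 at day 28 and 0.0131, 0.0344 and 0.0343 at day 3 (exact permutation p = 0.3), and day 28 replicate 3 lay below 2 of the day 3 libraries. Gad2 itself had a log2 difference of 0.33 (limma adjusted p = 0.24). The log2 ratio of Dlx1 to Gad2 was higher at day 28 by 1.18, and that of Dlx6 to Gad2 by 0.68.

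**Figure D3:**
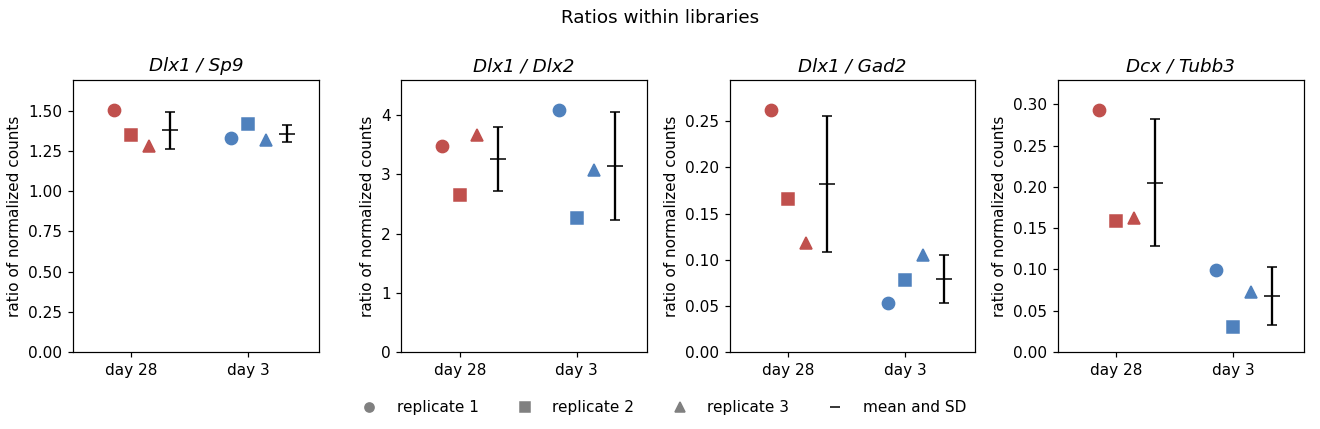
Ratios of normalized counts within each library, with day 28 left of day 3, 1 symbol per replicate, and the mean with SD of each group of 3 on axes that start at 0. The ratio of Dlx1 to Sp9 is alike in all 6 libraries, from 1.28 to 1.51, while those of Dlx1 to Gad2 and Dcx to Tubb3 do not overlap between the days.

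Genes of olfactory bulb interneurons had a list median of 0.81, with 10 of 13 log2 differences positive and none past the threshold. The groups did not overlap, day 28 higher, for 9 of the 13, against 9.71% of all tested genes. For Etv1 they did not overlap in the other direction (log2 difference -0.80, limma adjusted p = 0.153). Scgn, a calcium-binding protein gene of bulb interneurons, had 111, 42.9 and 53.1 normalized counts at day 28 and 5.50, 3.08 and 13.4 at day 3 (log2 difference 3.15, limma adjusted p = 0.0877). With a day 3 mean of 7.32, Scgn passed the filter only through day 28. Sp8, a zinc finger factor of neuroblasts bound for the bulb, had 324, 162 and 80.6 at day 28 and 7.33, 26.7 and 43.8 at day 3 (log2 difference 2.90, limma adjusted p = 0.126). The Sp8 difference exceeded that of Dlx1, and the ratio of Dlx1 to Sp8 was 3.40, 4.33 and 5.47 at day 28 and 21.5, 9.0 and 8.94 at day 3 (exact permutation p = 0.1). Synpr, a synaptic vesicle gene, had 2049, 1686 and 1464 at day 28 and 829.8, 908 and 1290.0 at day 3 (log2 difference 0.79, limma adjusted p = 0.125). Meis2, a homeobox factor of bulb and striatal neurons, had 4918, 3343 and 2822 at day 28 and 1615, 1779.8 and 2249 at day 3 (log2 difference 0.95, limma adjusted p = 0.107). Th, the dopamine synthesis gene of periglomerular cells and of midbrain neurons, had 417, 141 and 79.6 at day 28 and 161, 165 and 189.9 at day 3, high in day 28 replicate 1 alone (log2 difference -0.03, limma adjusted p = 0.986).

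Dlx genes are expressed in other forebrain inhibitory cells too. Of 8 genes of forebrain interneuron classes, none passed, and the median log2 difference was 0.09. Lhx6, a factor of interneurons from the medial ganglionic eminence, had 301, 369 and 283 normalized counts at day 28 and 249, 300.2 and 338 at day 3 (log2 difference 0.11, limma adjusted p = 0.826). Sst had a log2 difference of 0.07, Pvalb, which cerebellar neurons also express, of -1.41, Npy of 0.43 and Adarb2 of 0.45 (limma adjusted p = 0.895, 0.194, 0.453 and 0.18). Genes of striatal medium spiny neurons showed a median of 0.77, with 10 of 10 positive and 1 past the threshold, Rgs9 (log2 difference 1.04, limma adjusted p = 0.0411), where 0.0681% of all tested genes were called higher. No gene was called higher, Rgs9 included, with voom, with no intensity trend, with the replicate number as a block, with the cerebellar covariate, on leaving out day 3 replicate 2 or any 1 of the day 28 libraries, or with day 3 replicate 3 as the lone day 3 library. Foxp1 and Ppp1r1b, at log2 differences of 0.68 and 0.60, did not pass (limma adjusted p = 0.117 for both). For 8 of the 10 striatal genes the groups did not overlap, day 28 higher, against 9.71% of all tested genes. Such separation was therefore not particular to the bulb interneuron genes, where 9 of 13 showed it. The 4 Dlx genes had a median of 1.34, which was not tested against those of the lists.

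**Figure D4:**
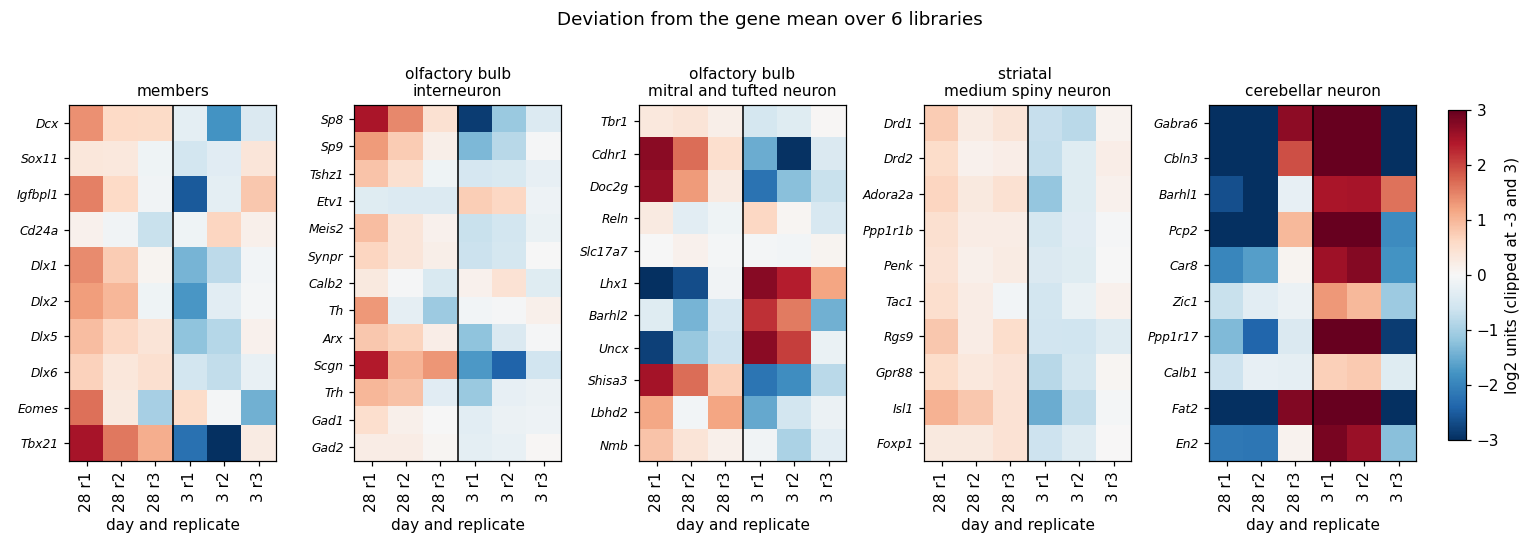
Deviation of log2(normalized count + 1) from the mean of each gene over the 6 libraries, red above and blue below, clipped at -3 and 3 log2 units, with day 28 libraries (28 r1 to 28 r3) left of day 3 libraries (3 r1 to 3 r3). For the 10 genes the mean deviation is 1.18, 0.59 and 0.06 at day 28 and -1.01, -0.77 and -0.05 at day 3, and the cerebellar genes are high in 3 r1 and 3 r2.

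The T-box genes Tbx21 and Eomes share mitral and tufted cells as a source in the bulb, but they did not share a profile over the libraries. Tbx21 had 48.9, 25.9 and 18.0 normalized counts at day 28 and 0.916, 0 and 9.74 at day 3. These are 49, 29 and 19 reads at day 28 and 1, 0 and 8 reads at day 3, where a count of 0 allows up to 3 reads from counting error alone. Every day 28 library was above every day 3 library (log2 difference 3.43, SE 0.99, limma adjusted p = 0.19). With a day 3 mean of 3.55, Tbx21 passed the filter only through day 28. Its 4 highest libraries had the same order as those of Cdhr1, from day 28 replicate 1 down to day 3 replicate 3. Dlx1, Dlx5, Sp8 and Sp9 had that order too, so it was not particular to mitral and tufted cell genes. The order of the lowest 2 libraries of Tbx21, at 1 and 0 reads, cannot be told at this depth.

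Eomes had 487, 187 and 75.8 normalized counts at day 28 and 223, 148 and 56.0 at day 3, so the groups overlapped widely (log2 difference 0.63, SE 0.67, limma adjusted p = 0.734). Day 28 replicate 1 was the highest, and without it the Eomes difference was -0.047. The next highest was day 3 replicate 1, a library low in Tbx21 and Cdhr1. The ratio of Eomes to Cdhr1 was 0.439, 0.344 and 0.315 at day 28 and 3.75, 7.20 and 0.451 at day 3. It lay between 0.315 and 0.451 in the 3 day 28 libraries and day 3 replicate 3, and was highest in both day 3 libraries with much Gabra6.

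Lmx1a, a factor of cerebellar unipolar brush cells, was below the filter and had 0.998, 6.25 and 2.84 normalized counts at day 28 and 19.2, 15.4 and 4.87 at day 3. All 4 tested genes of the unipolar brush cell list of 5 had negative log2 differences, with a median of -0.55 and none past the threshold, and the summed level of the list was 2536 to 4019 at day 28 and 3230 to 5023 at day 3. Plcb4 and Otx2 had differences of -0.47 and -0.73 (limma adjusted p = 0.432 and 0.449). The part of these cells in the Eomes values was not tested. The dentate gyrus list, another site of Eomes, had a median of -0.54 over 6 genes with none past the threshold. Neurod1, which cerebellar granule cells also express, C1ql2 and Tdo2 had differences of -1.95, -0.70 and -2.11 (limma adjusted p = 0.252, 0.338 and 0.476). Tdo2 had 29.9, 29.5 and 16.1 normalized counts at day 28 and 42.1, 1084 and 26.8 at day 3, high in day 3 replicate 2 alone.

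Other genes of mitral and tufted cells did not move as 1 group. Of 11 genes none passed, 7 had positive log2 differences, and the list median was 0.58. Shisa3 had 166, 93.8 and 47.4 normalized counts at day 28 and 5.50, 7.20 and 15.8 at day 3 (log2 difference 3.25, limma adjusted p = 0.0736). Its day 3 mean was 9.50, so it too passed the filter only through day 28. Cdhr1 and Doc2g had log2 differences of 3.27 and 2.77 (limma adjusted p = 0.102 and 0.126), close to the 3.43 of Tbx21. Lhx1, which Purkinje and hindbrain neurons also express, had 2.00, 4.46 and 31.3 at day 28 and 227, 176 and 77.9 at day 3 (log2 difference -4.19, limma adjusted p = 0.091). Tbr1, a factor of deep cortical neurons as well, had a log2 difference of 0.58 (limma adjusted p = 0.147).

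**Figure D5:**
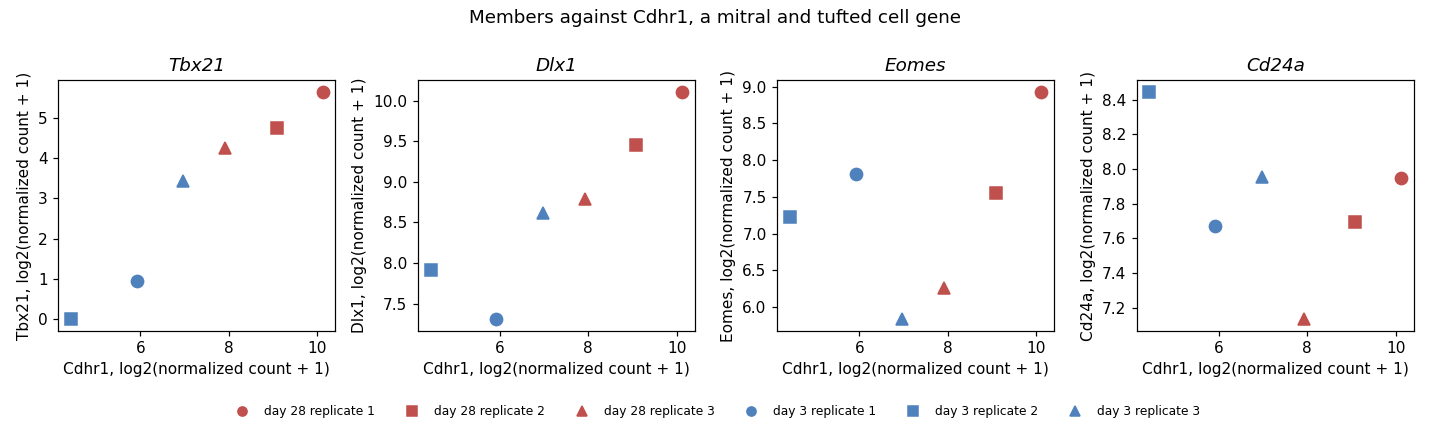
Levels of Tbx21, Dlx1, Eomes and Cd24a against that of Cdhr1, both as log2(normalized count + 1), 1 point per library, day 28 in red and day 3 in blue. Tbx21, Dlx1 and Cdhr1 have the same order in their 4 highest libraries. For Eomes, day 3 replicates 1 and 2 lie above the level of the day 28 library with the lowest Cdhr1, 75.8 normalized counts.

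T and NK cells are the other known source of Tbx21. The 8 T and NK cell genes were all below the filter, with a summed level of 9.48 to 26.0 normalized counts at day 28 and 0 to 45.8 at day 3. Cd3e, Cd3g and Cd8a, which define T cells, had 0 reads in day 28 replicate 1, the library with the most Tbx21 reads. Il2rb, a receptor gene of both cell types, had 17.0, 6.25 and 7.58 at day 28 and 24.7, 1.03 and 0 at day 3, with its peak in day 3 replicate 1. The NK cell gene Ncr1 had 5, 4 and 1 reads at day 28 and 4, 1 and 0 reads at day 3. Gzmb, a granule protease gene of both cell types, had 4 reads in day 28 replicate 1, 5 in day 3 replicate 1 and 0 in the other libraries. The part of T and NK cells in the Tbx21 values was not tested.

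Cd24a, a glycoprotein gene of neuroblasts, ependyma and blood cells, was the 1 gene of the 10 with a negative log2 difference. It had 246, 206 and 139 normalized counts at day 28 and 202, 348 and 247 at day 3, with overlapping groups (log2 difference -0.43, SE 0.26, limma adjusted p = 0.513). Day 3 replicate 2 stood highest. Without that library the difference was -0.22.

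Single genes of the other known sources of Cd24a differed in whether day 3 replicate 2 was highest. The summed level of each list given below was highest in that library, but single genes made up much of some sums. Ttr held 14114 of the 14784 normalized counts of the choroid plexus list there, and Rarres2 342 of the 599 of the ependyma list. Of the other choroid plexus genes, Kl, Clic6 and Aqp1 were highest in a day 28 library, and Folr1 in day 3 replicate 2. Foxj1, which defines ependyma, had 159, 109 and 134 normalized counts at day 28 and 120.9, 165 and 151 at day 3. Rarres2, from the same list, had 101, 85.7 and 118 normalized counts at day 28 and 76.9, 342 and 109.5 at day 3. Tmem212 was lowest in day 3 replicate 2, at 5.14. Ccdc153 and Dynlrb2 were highest in day 28 replicate 3, at 70.1 and 19.9, with day 3 replicate 2 close behind at 67.9 and 19.5. S100a9, a neutrophil gene, had 2.00, 1.79 and 3.79 at day 28 and 4.58, 41.1 and 8.52 at day 3, while the neutrophil gene Ly6g had 0 reads in all libraries. Hbb-bs, a haemoglobin gene of red cells, had 634, 759.9 and 742 at day 28 and 884, 2117 and 1458 at day 3 (log2 difference -0.98, limma adjusted p = 0.169). Alas2 and Hbb-bt, of the same list, had log2 differences of -1.33 and -1.12 (limma adjusted p = 0.0917 and 0.138). Summed over its genes, the red cell list of 5 stood at 1602 to 2146 normalized counts at day 28 and 2247 to 5206 at day 3, the neutrophil list of 5 at 3.57 to 8.53 at day 28 and 10.1 to 74.0 at day 3, and the B cell list of 4 at 0.948 to 2.68 at day 28 and 4.58 to 16.5 at day 3. The ependyma list of 5 stood at 284 to 361 at day 28 and 234 to 599 at day 3, and the choroid plexus list of 5 at 7965 to 11716 at day 28 and 6757 to 14784 at day 3. Tmem212, Rarres2 and Dynlrb2 of the ependyma list had log2 differences of 0.81, -0.50 and 0.53, and Kl, Aqp1 and Folr1 of the choroid plexus list of -0.31, 0.54 and -0.35 (limma adjusted p from 0.613 to 0.779 for these 6). No gene of these lists passed the test, and their part in the Cd24a values was not tested.

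Per length, the Dlx genes led at day 28. With exon lengths from the GENCODE M21 annotation, the mean level was 138 ± 61.8 normalized counts per kilobase for Dlx1 at day 28, against 48.8 ± 22.0 at day 3 (SD, n = 3 each). Dlx5 had 128 ± 24.0 at day 28 and 56.7 ± 29.1 at day 3, and Dlx6 had 121 ± 15.2 at day 28 and 60.6 ± 11.1 at day 3. These 3 did not differ from one another beyond their spread on either day. Dlx2 had 81.9 ± 35.7 at day 28 and 31.8 ± 16.3 at day 3, and Cd24a 76.4 ± 20.8 at day 28 and 103 ± 28.8 at day 3. Dcx had 72.4 ± 24.0 at day 28 and 23.8 ± 11.1 at day 3, Sox11 67.7 ± 11.8 at day 28 and 54.5 ± 19.1 at day 3, and Eomes 60.1 ± 51.2 at day 28 and 34.3 ± 20.2 at day 3. Neighbours in that order overlapped within 1 SD at day 28, and Cd24a ranked highest of the 10 at day 3. Igfbpl1, with 11.3 ± 6.46 at day 28 and 5.71 ± 5.22 at day 3, and Tbx21, with 12.4 ± 6.45 at day 28 and 1.43 ± 2.16 at day 3, were the lowest on both days.

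The mean of the 10 standardized genes was 1.10, 0.54 and -0.06 in day 28 replicates 1 to 3 and -0.97, -0.60 and -0.01 in day 3 replicates 1 to 3. Day 28 replicate 3 and day 3 replicate 3 were therefore nearly alike in this measure. Of the other genes with a symbol, the 6 whose log2 values over the 6 libraries were most like it by Pearson correlation were Gng4 (r = 0.998), Ankrd34c (r = 0.996), Dstyk (r = 0.992), Midn (r = 0.991), Sp9 (r = 0.989) and Pcdha7 (r = 0.986). All these correlations are over the same 6 libraries, and the genes were picked for the highest values among the 15978 tested genes with a symbol. Gng4, a G protein gamma subunit gene, had 2068, 1440.2 and 855 normalized counts at day 28 and 449.7, 606 and 992 at day 3, with overlapping groups (log2 difference 1.08, limma adjusted p = 0.23). Of the 10 genes themselves, Dlx1 had the highest likeness to their mean (r = 0.995), and Eomes (r = 0.37) and Cd24a (r = -0.07) the lowest. Each of the 10 is part of that mean, which raises its r, so these values cannot be set beside those of other genes.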

How the data were processed

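Per the file headers, the deposited table held 1 column per library and Ensembl gene rows. The deposited values were log2 of normalized counts plus 1. After undoing the log2, 100% of values were whole multiples of a library's smallest step (tolerance 0.001 reads), so the authors' values are read counts divided by size factors (0.822 to 1.12). Per the submitters' processing notes the build was GRCm39; aligner, counting tool, annotation and strand setting are not given in the sources used here. Symbols came from GENCODE M21 and matched 52073 of 56748 identifiers. Genes averaging at least 10 normalized counts were tested with limma 3.58.1 in R 4.3.3 on the deposited log2 scale, with an intensity trend and group as the only term, two-sided, with Benjamini-Hochberg adjustment at 0.05. An offset of 1 understates changes of low genes. The fit was tested on data simulated with the same spread in both groups. Ratios used exact permutation tests (scipy 1.17.1). Replicates of a group differed beyond sampling noise (chi-square per degree of freedom 9.005 to 11.1 at day 28 and 29.7 to 44.8 at day 3). The simulation did not cover this larger spread at day 3. The 10 genes and 17 marker lists were chosen with earlier results of these data known; in each list the text names up to 3 genes of smallest p, any past the threshold, and others chosen after their values were seen. Some list genes are not reported here by name. The 17 alternatives covered offset, filter, scaling, test, variance model, replicate block, a cerebellar covariate and left-out libraries.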

Additional observations from a re-analysis of the deposited data

How the results depend on the processing

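For the 10 genes, 160 of 168 single-gene results under alternatives kept their direction and their side of the threshold, 4 passed without day 3 replicate 3 and 4 changed sign. With the cerebellar list as covariate the Sox11 log2 difference was -0.10. Without both day 3 libraries rich in cerebellar transcripts it was -0.19 for Sox11 and -0.14 for Igfbpl1. Leaving out 1 library moved the Eomes difference between -0.047 (without day 28 replicate 1) and 1.29. The number of the 10 genes called ran from 0 to 4 on leaving out 1 library and was 0 under every other alternative. The cause was not tested.

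Over all genes, 31 were called, and the count depended on the fit: it was 68 with no low-value filter, where 29347 genes were tested, 3 with no intensity trend, 2 with the cerebellar covariate, 0 with voom and 0 without both day 3 libraries rich in cerebellar transcripts (2113 and 1904 genes at an unadjusted p under 0.05). Leaving out 1 library gave 1 to 623 genes, namely 1 without day 28 replicate 1, 2 without day 28 replicate 2, day 28 replicate 3 or day 3 replicate 2, and 623 without day 3 replicate 3. With the replicate number as a block, 0 genes and 0 of the 10 were called (2386 genes and 7 of the 10 at an unadjusted p under 0.05). That block changed the SE of the Eomes difference from 0.67 to 0.21 (limma adjusted p = 0.267). Same-numbered libraries had correlations of deviations of 0.03, 0.13 and -0.06, and differently numbered ones of -0.20 to 0.16. Not every library correlated best with its own number. The labels give only the number, and these correlations cannot decide whether same-numbered libraries are paired.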
